A study of Mus musculus with 12 samples.

Results

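The genes described here are 9 markers of bile duct cells and of the ductular reaction, *Krt7*, *Krt19*, *Krt23*, *Epcam*, *Sox9*, *Spp1*, *Tff3*, *Cldn4* and *Cftr*, read in bulk RNA sequencing of 12 mouse livers. They were chosen by name as cholangiocyte and ductular genes, with earlier results of these livers known, so their differences between groups are given as descriptions. Calls and counts at p thresholds are given for them, but no p-value of a single one of these genes. All 9 were listed in both count tables, among 20093 genes that the tables share (20775 listed for chow, 22709 for the high fat diet).

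All mice were male C57BL/6N carrying floxed *Elavl1* alleles (HuR F/F), and the labels give an age of 4 to 6 months. *Elavl1* encodes HuR, an RNA-binding protein. The WT groups received the vector AAV8-Tbg-null and the groups labelled HuRHep-/- received AAV8-Tbg-Cre, in which the Tbg promoter drives Cre in hepatocytes. One pair of groups stayed on normal chow, and the other was fed for 16 weeks a diet high in fat (40 kcal%), cholesterol (2%) and fructose (20 kcal%), called HFCF. Each of the 4 groups had 3 libraries, so the floxed allele and an AAV8 injection were common to all mice, and WT here means floxed mice without Cre. The methods of the study that used the chow livers describe an albumin-Cre cross and younger mice instead, and the labels were followed here. Diet, count table and any sequencing run went together and cannot be told apart.

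The libraries held 30071731 to 35949203 counts each, and every library resembled its own group more than the others. The targeted gene went against its label. *Elavl1* stood at 31.1, 29.3 and 31.3 CPM (counts scaled to a library of 1000000) in chow WT livers and at 42.9, 39.4 and 39.0 CPM in livers labelled HuRHep-/-. On HFCF the WT livers held 23.8, 24.2 and 27.0 CPM and the livers labelled HuRHep-/- 32.1, 31.9 and 33.7 CPM. The log2 difference was 0.40 ± 0.07 (SE) on chow and 0.38 ± 0.07 on HFCF (limma, Benjamini-Hochberg adjusted p = 0.0254 and 0.0325), higher in 3 of 3 libraries each time. Each value sums over every exon, the floxed part included, so it cannot check the deletion, and every direction below is that of the libraries as labelled. The 12 hepatocyte markers summed to 113000 to 136000 CPM in chow WT livers, 97700 to 109000 CPM in chow livers labelled HuRHep-/-, 85700 to 93800 CPM in HFCF WT livers and 78700 to 84200 CPM in HFCF livers labelled HuRHep-/-. These ranges did not overlap, and the part of this order in the duct gene levels was not tested.

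Cholangiocytes line the bile ducts and are marked by the keratins *Krt7* and *Krt19*, the adhesion molecule *Epcam* and the transcription factor *Sox9*. In liver injury, small duct-like cells can expand at the portal tracts, a change called the ductular reaction, in which bile duct cells and hepatocytes that take on biliary features can both carry these markers. Notch and Hippo/YAP signals are known to steer cells toward the biliary fate. The 9 genes lie on 5 chromosomes of GRCm38. *Krt7* spans chr15:101411043-101430313 on the plus strand, *Epcam* chr17:87635979-87651129 on the plus strand and *Tff3* chr17:31125306-31129646 on the minus strand. *Krt19* (chr11:100140810-100148665, minus strand) and *Krt23* (chr11:99477974-99493137, minus strand) are type I keratin genes on the same chromosome as *Sox9* (chr11:112782224-112787760, plus strand). *Spp1* (chr5:104435118-104441050, plus strand) and *Cldn4* (chr5:134945119-134946934, minus strand) share another chromosome, and *Cftr* spans chr6:18170687-18322768 on the plus strand. In bulk tissue, more cells of a type and more RNA per cell cannot be told apart.

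The stretches before the gene starts are shown for the 5 genes whose HFCF groups did not overlap and for which the RefSeq table of promoters (build GRCm38.p6) held an entry, since these genes stood higher together on HFCF. That table held 6 of the 9 genes. *Krt19*, *Sox9* and *Tff3* had no entry. Each line runs 5′ to 3′ on the gene's strand over the 250 bases before the start, less any bases annotated as part of the transcript's untranslated end, and capitals mark matches to any of 6 motifs searched on both strands.
Krt7, chr15:101412153-101412401, plus strand: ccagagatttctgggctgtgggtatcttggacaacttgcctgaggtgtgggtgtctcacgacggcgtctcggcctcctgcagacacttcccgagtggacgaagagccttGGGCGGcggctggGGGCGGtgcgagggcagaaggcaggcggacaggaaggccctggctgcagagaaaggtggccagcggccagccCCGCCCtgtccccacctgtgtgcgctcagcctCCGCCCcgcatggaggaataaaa
Krt23, chr11:99493138-99493370, minus strand: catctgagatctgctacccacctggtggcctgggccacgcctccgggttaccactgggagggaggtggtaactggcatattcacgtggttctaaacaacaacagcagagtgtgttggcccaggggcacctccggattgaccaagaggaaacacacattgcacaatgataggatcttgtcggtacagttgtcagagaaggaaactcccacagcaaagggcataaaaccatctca
Epcam, chr17:87635729-87635978, plus strand: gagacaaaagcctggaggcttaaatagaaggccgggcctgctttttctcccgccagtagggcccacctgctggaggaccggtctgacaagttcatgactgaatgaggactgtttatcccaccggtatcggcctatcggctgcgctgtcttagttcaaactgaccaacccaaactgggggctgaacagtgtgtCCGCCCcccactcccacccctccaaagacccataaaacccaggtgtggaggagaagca
Cldn4, chr5:134946935-134947184, minus strand: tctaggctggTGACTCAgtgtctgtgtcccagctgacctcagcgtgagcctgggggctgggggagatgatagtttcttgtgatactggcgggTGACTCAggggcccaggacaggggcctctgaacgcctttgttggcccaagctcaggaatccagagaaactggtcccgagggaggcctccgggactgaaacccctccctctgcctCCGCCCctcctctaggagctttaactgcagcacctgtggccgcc
Spp1, chr5:104434861-104435110, plus strand: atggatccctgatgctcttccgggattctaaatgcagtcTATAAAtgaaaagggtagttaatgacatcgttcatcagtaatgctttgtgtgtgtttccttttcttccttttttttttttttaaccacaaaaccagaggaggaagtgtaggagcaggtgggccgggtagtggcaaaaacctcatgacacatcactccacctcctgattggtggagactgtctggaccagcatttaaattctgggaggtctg

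The motifs were the TATA box (TATAAA), the GC box (GGGCGG) and short cores for TEAD (GGAATG), SOX (AACAAT), RBPJ (TGGGAA) and AP-1 (TGANTCA). The TEAD and RBPJ letters can overlap each other. *Krt7* held 4 GC boxes, at 141, 128, 56 and 24 bases before the start, and *Epcam* and *Cldn4* held 1 each. Of all 32841 windows in the table, 32.7% held a GC box. The *Cldn4* window held the AP-1 letters at 240 and at 158 bases before the start, and 6.75% of all windows held them at least once. *Spp1* held 1 TATA box, 211 bases before the start, against 12.4% of all windows. The *Krt23* window held none of the 6 motifs. The TEAD, SOX and RBPJ letters were in none of the 5 windows, against 12.6%, 9.43% and 21.6% of all windows. The GC content of the 250 bases ranged from 43.6% for *Spp1* through 52.8% for *Krt23*, 56.4% for *Epcam* and 62.0% for *Cldn4* to 66.0% for *Krt7*. The *Krt7* window was not free of transcripts, because 205 of its bases lay in exons annotated to *Krt7* itself or to *Gm671* on the opposite strand. *Spp1* had a second entry, which lay within an exon of *Gm42793* and is not shown. Such matches describe letters and not bound sites.

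In CPM per kilobase of the principal transcript, which allows levels of different genes to be compared, *Spp1* stood highest in chow WT livers, at 29.8 ± 13.2 (SD, n = 3). *Krt23* at 3.49 ± 1.72 and *Tff3* at 3.19 ± 1.64 did not differ beyond their spread. Neither did *Sox9* at 1.19 ± 0.15, *Krt19* at 1.15 ± 0.42 and *Epcam* at 0.88 ± 0.24. *Krt7* stood at 0.335 ± 0.139, *Cldn4* at 0.0671 ± 0.0109 and *Cftr*, the chloride channel of the bile duct lining, at 0.0124 ± 0.0171. In HFCF livers labelled HuRHep-/- the levels per kilobase were 104 ± 33.2 for *Spp1*, 10.2 ± 2.23 for *Krt23*, 3.79 ± 1.38 for *Tff3*, 2.62 ± 0.98 for *Epcam* and 2.48 ± 0.20 for *Krt19*. There the ranges of mean ± SD of *Tff3*, *Epcam* and *Krt19* overlapped. *Sox9* followed at 1.79 ± 0.38, its range overlapping that of *Epcam* but not that of *Krt19*, with *Krt7* at 1.06 ± 0.21, *Cldn4* at 0.468 ± 0.203 and *Cftr* at 0.0723 ± 0.0428. Of the reads a gene can give, 10.2% of the 31-base words of *Spp1* also occurred in another annotated gene, against 2.71% for *Krt7*, 1.12% for *Sox9* and under 1% for each of the others, so *Spp1* counts could be split or shared by the counting.

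**Figure D1:**
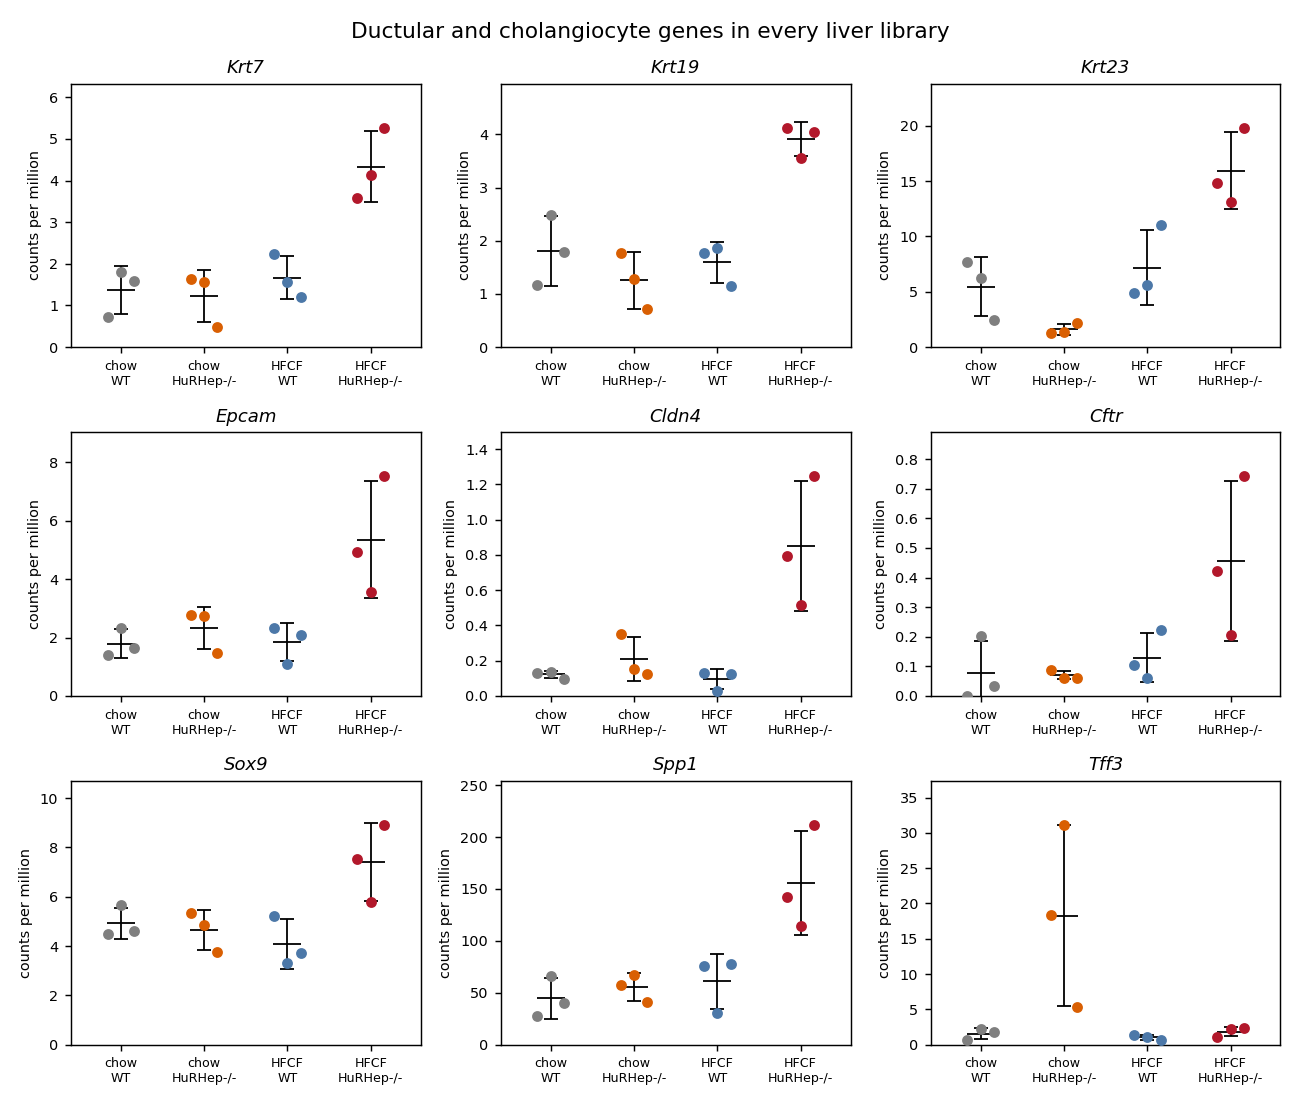
CPM (vertical axis, from 0, a separate scale for each gene) of the 9 genes in the 12 libraries, by group (horizontal axis). Points are libraries, and the bar and whiskers give the mean and SD of 3. On HFCF the 3 livers labelled HuRHep-/- lie above all WT livers for 7 genes, while *Tff3* is highest in chow livers labelled HuRHep-/-, from 5.41 to 31.1 CPM.

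On chow, the comparison of livers labelled HuRHep-/- with WT asks which genes moved without the diet. The duct genes did not move as one set. *Tff3* was far higher in the livers labelled HuRHep-/-, *Krt23* was lower, and the other 7 genes had overlapping groups. *Tff3* encodes a trefoil peptide secreted with mucus by epithelia. It held 0.663, 2.21 and 1.85 CPM in the WT livers and 18.4, 31.1 and 5.41 CPM in the livers labelled HuRHep-/-. The lowest of the latter exceeded the highest WT liver, and the spread within the group was wide (SD 12.8 around a mean of 18.3 CPM). The fitted log2 difference was 3.37 ± 0.66 (SE), the ninth highest of 13526 genes tested, and it ran from 2.83 without chow HuRHep-/- replicate 2 to 4.08 without chow HuRHep-/- replicate 3. The call was lost in 4 of the 6 fits that left out a library, those without chow WT replicate 1 or 3 or chow HuRHep-/- replicate 1 or 2. The summed levels of several marker lists also stood apart between the chow groups, among them the hepatocyte sum given above and the sum of the other biliary genes given below. So did those of 2 lists of other epithelial cells. The 3 pancreatic acinar genes that both tables list summed to 0.464, 0.636 and 0.593 CPM in WT livers and to 0.815, 1.62 and 0.866 CPM in those labelled HuRHep-/-, without overlap and highest in the library with the most *Tff3*. Of these genes *Cela2a*, a pancreatic elastase gene named after its values were seen, took most and differed by 1.09 ± 0.37, not called, while *Ctrb1* had 0 or 1 counts in each chow library. The 7 intestinal epithelial genes that both tables list went the other way, with 87.6 to 112 CPM in WT livers against 73.3 to 84.3 CPM. That sum was mostly set by *Fabp2* and *Lgals4*, with means of 69.1 and 29.3 CPM in WT livers. *Lgals4* was called lower at -0.813 ± 0.0953 (limma, adjusted p = 0.0103), the 1 called of 3 tested, against 2.31% of all genes. *Slc5a1* lay above 0 at 0.589 ± 0.391, not called. The part of such cells in the *Tff3* counts was not tested.

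*Krt23*, a type I keratin known from ductular cells of injured liver, went the other way on chow. The WT livers held 7.69, 6.23 and 2.47 CPM and the livers labelled HuRHep-/- 1.28, 1.34 and 2.20 CPM. The groups did not overlap, but the lowest WT liver lay near the highest liver labelled HuRHep-/-. The log2 difference was -1.65 ± 0.42 and was not called, but it was called without chow WT replicate 3, at -2.15, and in the fit on all 12 libraries.

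*Krt7* held 0.729, 1.81 and 1.58 CPM in chow WT livers and 1.63, 1.56 and 0.495 CPM in those labelled HuRHep-/-. *Krt19* held 1.16, 2.48 and 1.78 CPM against 1.78, 1.28 and 0.712 CPM. Replicate 3 of the livers labelled HuRHep-/- was lowest for both keratins, and it was the lowest of its group for 8 of the 9 genes, all but *Krt23*. The same library held the lowest summed level of 8 mesothelial markers, 1.08 CPM against 6.08 and 9.96 CPM in the other livers of its group, and chow WT replicate 1, lowest of its group for *Krt7* and *Krt19*, held 5.07 CPM against 13.0 and 15.4 CPM. Mesothelial cells of the liver capsule also express *Krt7* and *Krt19*, and the part of those cells in the keratin counts was not tested. The log2 differences were -0.24 ± 0.52 for *Krt7* and -0.55 ± 0.39 for *Krt19*. That of *Krt7* turned to 0.31 without chow HuRHep-/- replicate 3.

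*Epcam* held 1.39, 2.34 and 1.65 CPM in chow WT livers and 2.77, 2.74 and 1.49 CPM in those labelled HuRHep-/-, a log2 difference of 0.35 ± 0.30. *Sox9*, which marks duct cells and periportal hepatocytes, held 4.51, 5.66 and 4.62 CPM against 5.35, 4.85 and 3.74 CPM, a difference of -0.09 ± 0.17, or 0.058 without chow HuRHep-/- replicate 3. *Spp1*, encoding the secreted matrix protein osteopontin, held 27.5, 66.6 and 40.5 CPM against 58.0, 67.2 and 40.8 CPM, a difference of 0.37 ± 0.31. All of these groups overlapped. The tight junction gene *Cldn4* had 4, 4 and 3 counts in WT livers and 12, 5 and 4 in those labelled HuRHep-/-. *Cftr* had 0, 6 and 1 counts against 3, 2 and 2. Neither passed the filter on low counts on chow (at least 10 counts, scaled to the median library, in 3 libraries), and the count of 0 allows up to 0.0994 CPM in that library, from counting error alone. Of the 7 genes tested, 1 (*Tff3*) passed the call rule (adjusted p at most 0.05 and a fold change of at least 1.5 with at least 10 counts over each group), against 2.31% of all genes. Among all genes, 14.7% had groups that did not overlap with the livers labelled HuRHep-/- higher and 14.4% with them lower, against 1 of 9 each way here. Nothing is read from these shares, since the genes were picked with this contrast known.

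On HFCF the same comparison asks whether the genotype label goes with a difference under the diet. Here the fitted estimates of all 8 genes tested lay above 0, though for *Cldn4* that direction was built into its being tested, as given below. *Cftr* did not pass the filter, and its groups overlapped. Fold changes of the 8 genes tested ran from 1.76 for *Tff3* to 8.35 for *Cldn4*, or to 2.89 for *Epcam* without *Cldn4*. All 116 alternative fits of these genes kept the direction. For the genes whose groups did not overlap this was nearly settled beforehand, so little is read from it. *Cldn4* was tested in only 3 of the fits that left out a library.

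The simple-epithelium keratin *Krt7* held 2.24, 1.56 and 1.21 CPM in HFCF WT livers and 3.59, 4.14 and 5.27 CPM in those labelled HuRHep-/-, a log2 difference of 1.39 ± 0.26. *Krt19*, its partner of the other keratin type in duct cells, held 1.76, 1.87 and 1.14 CPM against 4.13, 3.55 and 4.05 CPM, a difference of 1.31 ± 0.22. Both pairs of groups stood well apart, and *Krt19* had the tightest group, with an SD of 0.317 around 3.91 CPM in the livers labelled HuRHep-/-. *Krt23* held 4.87, 5.61 and 11.1 CPM against 14.8, 13.1 and 19.8 CPM, a difference of 1.22 ± 0.31. Its WT replicate 3 stood at about the level between the groups, so the gap there was small. The difference was not called, but it was called without that library, at 1.59, and with voom weights.

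*Epcam*, which encodes an adhesion molecule of duct cells and hepatic progenitors, held 2.32, 1.10 and 2.10 CPM in WT livers and 4.95, 3.57 and 7.52 CPM in those labelled HuRHep-/-, a log2 difference of 1.53 ± 0.36. *Sox9* held 5.21, 3.31 and 3.72 CPM against 7.54, 5.78 and 8.90 CPM, a difference of 0.86 ± 0.22, the smallest among the genes whose groups did not overlap. *Spp1* held 75.6, 30.9 and 77.8 CPM against 142, 114 and 211 CPM, a difference of 1.41 ± 0.38. For these 3 genes every liver labelled HuRHep-/- exceeded every WT liver.

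*Cldn4* had 5, 1 and 4 counts in HFCF WT livers and 32, 20 and 47 counts in those labelled HuRHep-/-, a log2 difference of 3.06 ± 0.60. It passed the filter through the livers labelled HuRHep-/- alone, so a difference in that direction was built into its being tested, and its WT counts summed to 10, the least that the call rule allows. *Cftr* had 4, 2 and 7 counts against 17, 8 and 28, and in CPM the lowest of the latter, 0.206, lay under the highest WT liver, 0.223. *Tff3*, which led on chow, held 1.34, 1.10 and 0.668 CPM against 1.09, 2.19 and 2.33 CPM on HFCF. Its groups overlapped, with a difference of 0.81 ± 0.38.

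Of the 8 genes tested, *Krt7*, *Krt19* and *Cldn4* passed the call rule, against 3.69% of all 14295 genes (2.15% called higher), and the groups of 7 did not overlap, against 17.1% of all genes that stood higher without overlap. As on chow, nothing is read from these shares. Within the HFCF livers labelled HuRHep-/-, replicate 3 was highest for 8 of the 9 genes and replicate 2 lowest for 7. The 3 calls fell to 1 without HFCF WT replicate 2 and to 0 without HFCF WT replicate 1 or any of the HFCF HuRHep-/- replicates, fits in which the calls over all genes fell from 528 to between 30 and 360. Without HFCF WT replicate 3 the count stayed at 3, with *Krt23* in place of *Cldn4*. The *Cldn4* call was lost in all 3 of these fits that tested it.

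**Figure D2:**
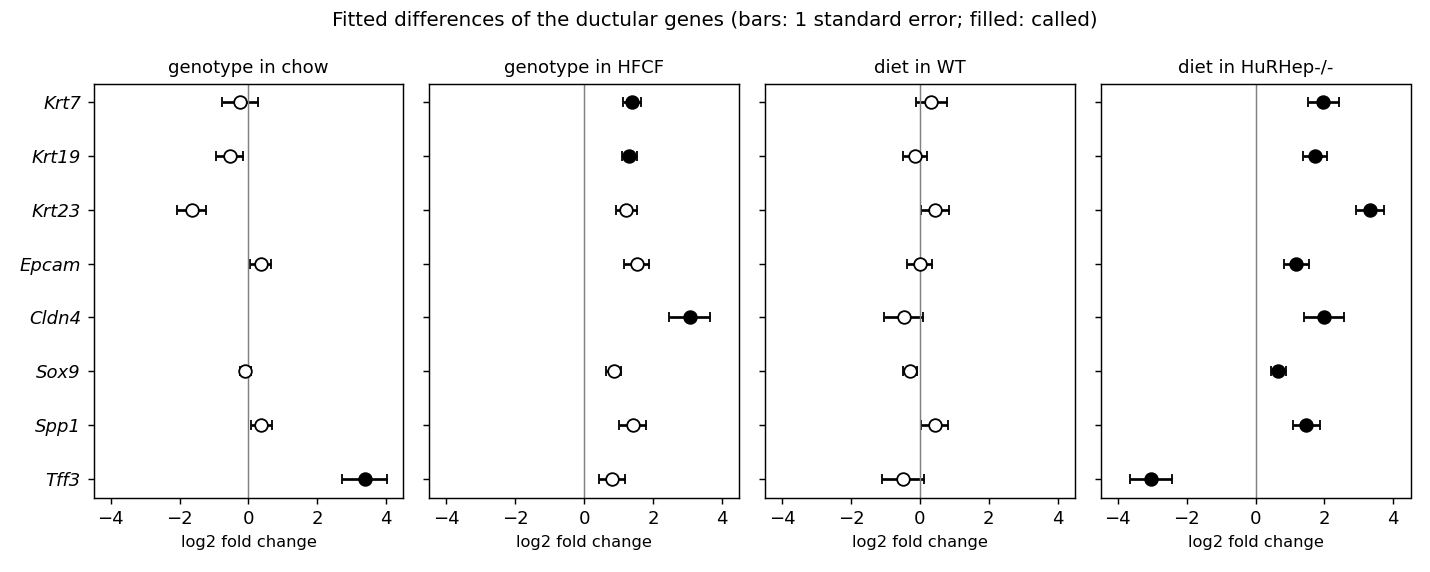
Fitted log2 fold changes (horizontal axes) of the 8 genes that passed the filter in at least 1 comparison (vertical axis), with bars of 1 standard error, for genotype within each diet and for diet within each genotype. Filled points passed the call rule. In HFCF all 8 estimates lie above 0, from 0.81 to 3.06, and in the diet comparison of livers labelled HuRHep-/- *Tff3* alone lies below 0, at -3.03. *Cldn4* passed the filter through the HFCF livers labelled HuRHep-/- alone, so its higher value there was built in.

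The diet comparisons used all 12 libraries and the 14535 genes tested there, and they share their groups with the comparisons of genotype, so they are no independent view of them. In WT livers, HFCF against chow left every one of the 9 genes with overlapping groups, against 17.4% of all genes higher and 20.2% lower without overlap. The log2 differences were 0.34 ± 0.46 for *Krt7*, -0.15 ± 0.34 for *Krt19*, 0.45 ± 0.41 for *Krt23*, -0.00 ± 0.36 for *Epcam*, -0.29 ± 0.21 for *Sox9* and 0.43 ± 0.39 for *Spp1*. *Tff3* gave -0.48 ± 0.61 and *Cldn4* -0.47 ± 0.57. None of the 8 tested was called by limma, none had an unadjusted p under 0.05 and none was called with voom weights, while 9.39% of all genes were called. Leaving out 1 library changed the sign of 5 of the 8 estimates, that of *Krt23* to -0.044 without chow WT replicate 3, *Krt7* to -0.065 without chow WT replicate 1, *Krt19* to as much as 0.115 without chow WT replicate 2, *Cldn4* to 0.089 without HFCF WT replicate 2 and *Epcam*, near 0 to begin with, to as much as 0.329 without HFCF WT replicate 2.

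In livers labelled HuRHep-/- the same diet comparison separated the groups of all 9 genes. *Krt23* differed most, from 1.28 to 2.20 CPM on chow against 13.1 to 19.8 CPM on HFCF, a log2 difference of 3.32 ± 0.41. *Krt7* was higher by 1.97 ± 0.46, *Krt19* by 1.72 ± 0.34, *Cldn4* by 1.99 ± 0.57 and *Spp1* by 1.48 ± 0.39 on the log2 scale. *Epcam* followed at 1.18 ± 0.36 and *Sox9* at 0.66 ± 0.21. *Cftr* rested on 3, 2 and 2 counts against 17, 8 and 28. *Tff3* ran opposite to the others, from 5.41 to 31.1 CPM on chow against 1.09 to 2.33 CPM on HFCF, a log2 difference of -3.03 ± 0.61, or -3.74 without chow HuRHep-/- replicate 3. As in the genotype comparison on HFCF, *Cldn4* passed the filter only with the HFCF livers labelled HuRHep-/-, so its higher value there was built into its being tested. All 8 genes tested passed the call rule, 7 higher and 1 lower, where 19.2% of all genes did (13.7% higher and 5.5% lower), and 26.3% and 29.2% of all genes stood higher and lower without overlap, shares from which again nothing is read. The 8 calls fell to 5 without chow HuRHep-/- replicate 3 or without HFCF HuRHep-/- replicate 3.

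The interaction, the genotype difference on HFCF less that on chow, was 2.87 ± 0.58 for *Krt23*, 2.46 ± 0.80 for *Cldn4*, 1.87 ± 0.48 for *Krt19* and 1.64 ± 0.64 for *Krt7* on the log2 scale. It was 1.18 ± 0.51 for *Epcam*, 1.05 ± 0.55 for *Spp1*, 0.95 ± 0.29 for *Sox9* and -2.55 ± 0.86 for *Tff3*, or -3.26 without chow HuRHep-/- replicate 3. None of the 8 genes was called by limma, and 0 of the 14535 genes tested were (0% of all), or 1 of all genes with voom weights. At an unadjusted p under 0.05 stood 7 of the 8 genes and 2116 of all genes (14.6%), and nothing is read from these counts either, since the genes were picked with the contrasts known. Without HFCF WT replicate 3, *Krt23* became the 1 gene of the 8 called, at 3.24, among 37 of all genes.

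A list of 30 other biliary epithelial genes, drawn from known markers, gives measures that the choice of the 9 genes did not use directly, though it was written with earlier results of these livers known and these libraries are the same. On chow, 24 of them were tested, none was called by limma and none with voom weights. Of the 24, 5 had an unadjusted p under 0.05, where 23.4% of all genes tested on chow and 29.7% on HFCF did, and 18 estimates lay above 0 with a median of 0.19, where the median of all genes was -0.001. On HFCF, 26 were tested and 13 were called higher in livers labelled HuRHep-/-, where 2.15% of all genes were, with none lower, where 1.55% of all genes were. All 26 estimates lay above 0, with a median of 1.19 against -0.009 for all genes. *Elf3* and *Ncam1*, both called and named after their values were seen, were tested on HFCF and not on chow. For 3 of the 26, *Ncam1*, *Anxa13* and *Vtcn1*, the WT libraries alone would not have passed the filter, so a higher level in the livers labelled HuRHep-/- was built into their being tested. Without them 11 genes were called, and 23 of 23 estimates lay above 0 with a median of 1.01.

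*Tspan8*, a tetraspanin of secretory epithelia, led the better counted genes of the list on HFCF. It ranged from 0.766 to 1.95 CPM in WT livers and from 4.29 to 7.39 CPM in livers labelled HuRHep-/-, a log2 difference of 2.06 ± 0.37 (limma, adjusted p = 0.0291). *Ddr1*, a collagen receptor of epithelial cells, ranged from 1.72 to 2.99 CPM against 5.17 to 8.27 CPM, a difference of 1.40 ± 0.27 (limma, adjusted p = 0.0331). *Cd24a*, a surface glycoprotein of progenitor cells, ranged from 2.18 to 3.95 CPM against 5.60 to 10.9 CPM, a difference of 1.39 ± 0.30 (limma, adjusted p = 0.0424). *Prom1*, encoding the progenitor marker CD133, ranged from 0.889 to 1.45 CPM against 2.21 to 2.57 CPM, a difference of 1.02 ± 0.22 (limma, adjusted p = 0.0433). In each of these 4 genes all 3 livers labelled HuRHep-/- exceeded all 3 WT livers.

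Some genes at the bottom of the order, named after their values were seen, stood at high levels in whole liver. *Cldn3* ranged from 79.9 to 104 CPM in HFCF WT livers and from 102 to 115 CPM in those labelled HuRHep-/-, and *Aqp1*, a water channel that endothelium also expresses, from 43.3 to 52.2 against 43.8 to 54.6 CPM. Their log2 differences of 0.23 ± 0.11 and 0.07 ± 0.11 were not called. *Sctr*, the secretin receptor, stood at 0.123 to 0.132 CPM against 0.180 to 0.821 CPM and was not tested. The 13 calls on HFCF fell to 7 without HFCF WT replicate 2 and to 0 without HFCF WT replicate 1 or any of the HFCF HuRHep-/- replicates.

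**Figure D3:**
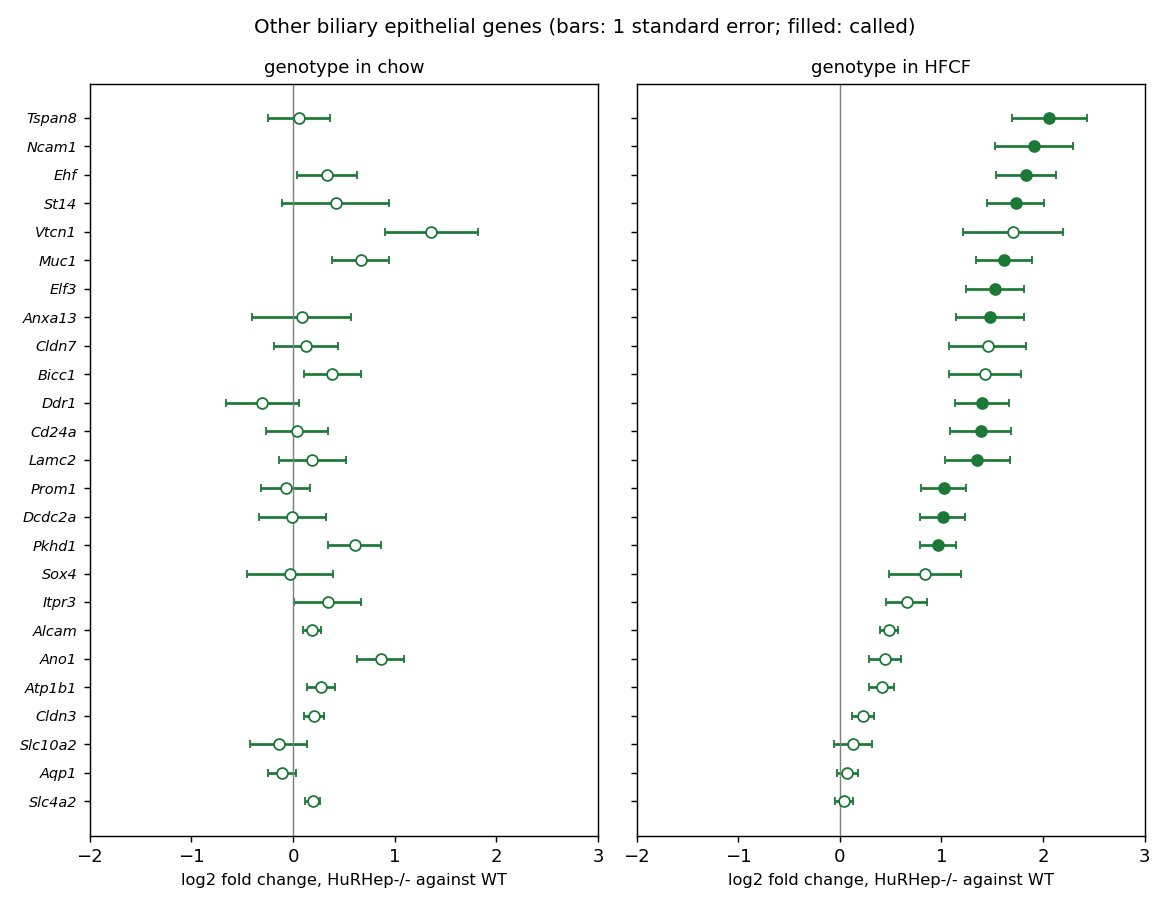
Log2 fold changes (horizontal axes) of livers labelled HuRHep-/- against WT for 25 of the 26 other biliary genes tested on HFCF (vertical axis, in the order of the HFCF values), on chow at left and on HFCF at right, with bars of 1 standard error. Filled points passed the call rule, which 13 genes did on HFCF and none on chow, where 24 were tested.

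Between diets, 1 of the 26 genes tested was called in WT livers, *Ano1*, a chloride channel, at 1.03 ± 0.19 (limma, adjusted p = 0.00362), against 6.07% of all genes called higher. In livers labelled HuRHep-/-, 18 of the 26 rose, where 13.7% of all genes did, none fell, and the median was 1.02 against -0.02 for all genes. *Elf3* and *Ncam1* are among the 18 and would not have passed the filter on the chow libraries alone, so a higher level on HFCF was built into their being tested, and without them 16 of 24 rose, with a median of 0.98. The largest among the better counted were *Tspan8* at 2.25 ± 0.36 (limma, adjusted p = 0.000881), *Ddr1* at 1.91 ± 0.34 (0.00158), *Cd24a* at 1.61 ± 0.33 (0.00321) and the transcription factor *Sox4* at 1.54 ± 0.43 (0.0147). The 18 fell to 10 without chow HuRHep-/- replicate 3 or without HFCF HuRHep-/- replicate 3.

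Among the gene families of the 9, the other claudins gave 2 of 11 called higher on HFCF in livers labelled HuRHep-/-, against 2.15% of all genes, *Cldn6* at 2.27 ± 0.39 and *Cldn8* at 2.06 ± 0.42 (limma, adjusted p = 0.0274 and 0.0366). Both are low genes, with 5 to 15 and 3 to 6 counts in WT livers against 38 to 61 and 20 to 27, and are named after their values were seen. Neither would have passed the filter on its WT libraries alone, so a difference in that direction was built into their being tested. Of the keratins that hepatocytes also express, *Krt8* ranged from 293 to 445 CPM in HFCF WT livers against 455 to 554 CPM, and *Krt18* from 182 to 258 against 276 to 343 CPM. Their differences of 0.47 ± 0.16 and 0.47 ± 0.15 were not called, although neither pair of groups overlapped. With the diet both rose in livers labelled HuRHep-/-, *Krt8* by 1.14 ± 0.16 and *Krt18* by 0.96 ± 0.14 on the log2 scale (limma, adjusted p = 0.000396 and 0.00064), and *Krt8* rose in WT livers by 0.61 ± 0.16 (limma, adjusted p = 0.0154). Of the trefoil peptides and mucins, 3 of 14 were tested, all of them mucins. The epithelial mucin *Muc1* was called on HFCF at 1.61 ± 0.27 (limma, adjusted p = 0.0259), named after its value was seen. It is also 1 of the 13 biliary genes called above, so it is no further call, and *Cldn3* and *Cldn7* likewise stand in both the biliary and the claudin lists. On chow none of the 3 mucins was called by limma or with voom weights, and 1 had an unadjusted p under 0.05, where 23.4% of all genes did.

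In the Notch pathway, one of those known to steer biliary fate, none of 14 genes was called by genotype by limma or with voom weights on chow or on HFCF, where 2.31% and 3.69% of all genes were called. At an unadjusted p under 0.05 stood 21.4% of the 14 on chow and 28.6% on HFCF, near the 23.4% and 29.7% of all genes. On HFCF the ligand gene *Jag1* differed by 0.03 ± 0.24 and the receptor gene *Notch1* by 0.17 ± 0.19. With the diet, *Notch1* rose in WT livers by 0.99 ± 0.20 (limma, adjusted p = 0.00529), the 1 of 14 called, where 6.07% of all genes were called higher. In livers labelled HuRHep-/-, 5 of 14 rose with the diet, against 13.7% of all genes, among them the target gene *Heyl* at 1.17 ± 0.32, *Jag1* at 0.88 ± 0.20, *Notch1* at 0.79 ± 0.20 and the ligand gene *Dll4* at 0.62 ± 0.20 (limma, adjusted p = 0.013, 0.0063, 0.00917 and 0.029). Of the Hippo pathway and YAP targets, none of 18 was called on chow by limma or with voom weights (4 at an unadjusted p under 0.05, or 22.2%). On HFCF 1 of 19 was called, the scaffold gene *Ajuba* at 0.60 ± 0.14 (limma, adjusted p = 0.0465), or 2 with voom weights, and 21.1% had an unadjusted p under 0.05. With the diet, 2 of 20 rose in WT livers, against 6.07% of all genes. They were the receptor tyrosine kinase gene *Axl* at 0.915 ± 0.199 and *Wwtr1* at 0.638 ± 0.155 (limma, adjusted p = 0.00763 and 0.013). In livers labelled HuRHep-/-, 4 of 20 rose, against 13.7%, or 3 of 18 without *Ankrd1* and *Tead4*, which the chow libraries alone would not have carried past the filter. The YAP target *Ccn2* rose there by 1.25 ± 0.45 and *Axl* by 1.00 ± 0.20, near its rise in WT livers (limma, adjusted p = 0.0458 and 0.00282).

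Of the signals and receptors of the ductular reaction, 1 of 11 was called on chow, against 2.31% of all genes, namely *Tnfsf12*, which encodes TWEAK, a cytokine that acts on duct progenitors. It ranged from 8.41 to 11.6 CPM in WT livers and from 15.9 to 17.5 CPM in livers labelled HuRHep-/-, a log2 difference of 0.76 ± 0.13 (limma, adjusted p = 0.0212). On HFCF none of 12 was called by limma or with voom weights, 9 had an unadjusted p under 0.05 (75% of the list, against 29.7% of all genes), though *Lif* and *Tgfb2* would not have passed the filter on the WT libraries alone, and *Tnfsf12* ranged from 15.2 to 18.9 CPM against 19.3 to 25.5 CPM. With the diet, 2 of 12 rose in WT livers, against 6.07% of all genes, the hepatocyte growth factor gene *Hgf*, named after its value was seen, at 0.93 ± 0.23 and *Tnfsf12* at 0.76 ± 0.13 (limma, adjusted p = 0.0128 and 0.00293). In livers labelled HuRHep-/-, 5 of 12 rose with the diet, against 13.7% of all genes, with *Tgfb1* at 1.18 ± 0.22 and the hyaluronan receptor gene *Cd44* at 1.06 ± 0.29 (limma, adjusted p = 0.00208 and 0.013).

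Markers of other cell types moved as well. On HFCF the 8 mesothelial markers summed to between 6.64 and 19.0 CPM in WT livers and between 15.7 and 27.0 CPM in livers labelled HuRHep-/-, with all 8 estimates above 0. For 3 of the 8, *Bnc1*, *Lrrn4* and *Muc16*, the WT libraries alone would not have passed the filter, so that direction was built in, and without them 5 of 5 estimates lay above 0. None of the 8 was called by limma or with voom weights, and 2 had an unadjusted p under 0.05 (25% of the list, against 29.7% of all genes). With the diet, 4 of the 8 rose in livers labelled HuRHep-/-, against 13.7% of all genes (or 4 of 7 without *Bnc1*, which the chow libraries alone would not have carried past the filter), among them *Msln* at 3.82 ± 1.04 and *Upk3b* at 2.36 ± 0.81 (limma, adjusted p = 0.0135 and 0.0376), in the comparison in which *Krt7* and *Krt19* were higher too. The part of these cells in the keratin counts on HFCF was not tested.

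The 12 markers of lipid-associated macrophages, cells that also express *Spp1*, moved in part with it. By genotype on HFCF, 9 of the 12 estimates lay above 0, with a median of 1.06 against -0.009 for all genes, beside the *Spp1* difference of 1.41. They ran from -0.72 ± 0.27 for *Fabp5* to 1.62 ± 0.80 for *Mmp12*, with 1.58 ± 0.58 for the integrin gene *Itgax* and 1.07 ± 0.58 for *Cd63*, all 4 named after their values were seen and none of them called. Only the tetraspanin gene *Cd9* was called, at 1.05 ± 0.25 (limma, adjusted p = 0.049), 1 of 12 against 2.15% of all genes called higher. On chow, 2 of 11 were called by genotype, against 2.31% of all genes. *Lpl* was higher at 1.42 ± 0.23 and *Cd36* lower at -0.98 ± 0.18 (limma, adjusted p = 0.0208 and 0.0301). The summed level, 585 to 945 CPM in HFCF WT livers and 768 to 863 CPM in those labelled HuRHep-/-, was mostly set by *Ctsd*, with means of 466 and 436 CPM, and *Cd36*, with 164 and 140 CPM, neither of which was higher in the latter. With the diet, 8 of the 12 were called in WT livers, 7 higher, against 6.07% of all genes, and *Fabp5* lower at -1.08 ± 0.29, against 3.32%, but 4 with voom weights. *Gpnmb* rose there by 5.33 ± 1.05 and *Trem2* by 2.76 ± 0.46 (limma, adjusted p = 0.00474 and 0.00225), while *Spp1* stood at 30.9 to 77.8 CPM on HFCF against 27.5 to 66.6 CPM on chow. In livers labelled HuRHep-/-, 9 of the 12 rose with the diet, against 13.7% of all genes, and 1 fell, with a median of 2.11. *Mmp12* is among the genes called higher in both genotypes, but the chow libraries alone would not have carried it past the filter, so its rise was built into its being tested, and without it 6 and 8 of 11 rose. *Gpnmb* rose in livers labelled HuRHep-/- by 4.82 ± 1.05 and *Itgax* by 3.48 ± 0.57 (limma, adjusted p = 0.00442 and 0.000983), in the comparison in which *Spp1* was higher by 1.48. Their part in the *Spp1* counts was not tested.

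The 11 markers of stellate cells and fibroblasts summed to between 178 and 427 CPM in HFCF WT livers and between 419 and 536 CPM in those labelled HuRHep-/-. By genotype on HFCF 1 was called, *Acta2* at 1.27 ± 0.26 (limma, adjusted p = 0.0376), against 2.15% of all genes called higher. With the diet all 11 rose in livers labelled HuRHep-/-, where 13.7% of all genes did, or 10 of 10 without *Timp1*, which the chow libraries alone would not have carried past the filter. In WT livers 1 rose, *Lrat* at 0.70 ± 0.19 (limma, adjusted p = 0.021), against 6.07% of all genes, while 10 of the 11 estimates lay above 0 with a median of 0.52. The interaction called none of the 11 by limma or with voom weights, with 2 at an unadjusted p under 0.05 (18.2%, against 14.6% of all genes). A difference between the genotypes in the response to the diet was therefore not shown. The 3 pancreatic acinar genes summed to at most 0.553 CPM in any HFCF library. The 29 other biliary genes that both tables list summed to 304 to 320 CPM in chow WT livers, 332 to 362 CPM in chow livers labelled HuRHep-/-, 283 to 310 CPM in HFCF WT livers and 367 to 400 CPM in HFCF livers labelled HuRHep-/-. That sum was mostly set by highly expressed genes such as *Cldn3* and *Aqp1*.

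**Figure D4:**
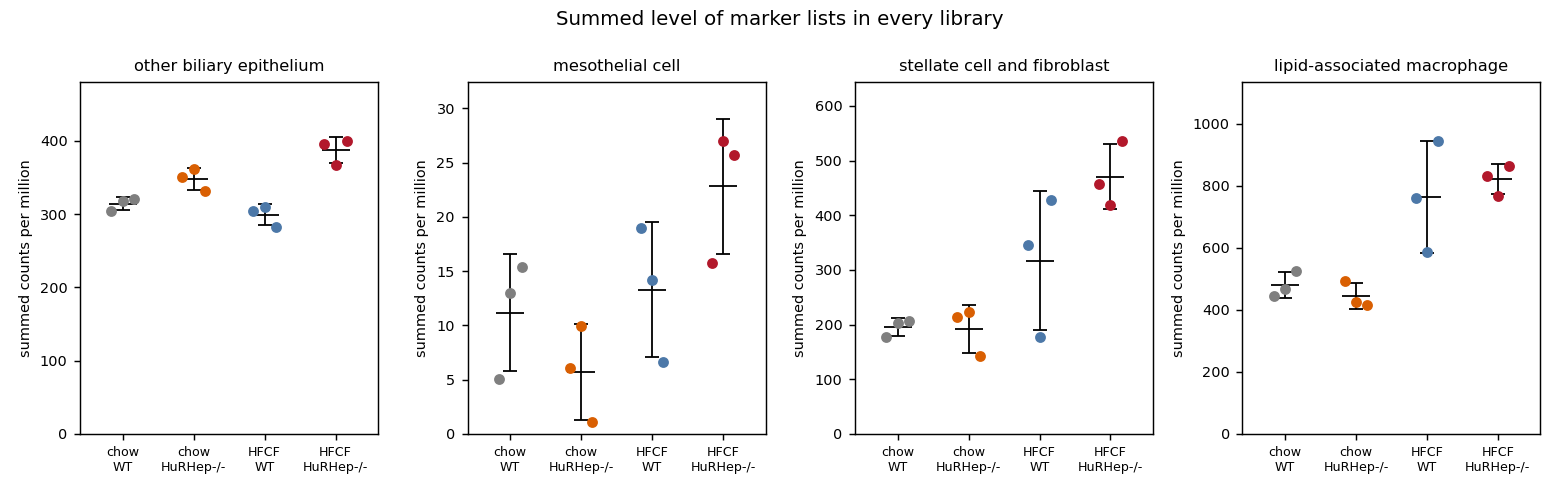
Summed CPM (vertical axis, from 0) of 4 marker lists in the 12 libraries, by group (horizontal axis). Points are libraries, with the mean and SD of 3. Both biliary and stellate sums are highest in HFCF livers labelled HuRHep-/-, where the stellate sum of the lowest liver, 419 CPM, lies under that of the highest HFCF WT liver, 427 CPM, and the mesothelial and macrophage sums overlap between the genotypes on HFCF.

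Across the 12 libraries the 9 genes did not vary as one block. On the log2 CPM scale, Pearson's r was 0.943 between *Krt7* and *Krt19*, 0.958 between *Epcam* and *Spp1* and 0.942 between *Epcam* and *Cldn4*. *Krt23* was less alike, with 0.547 for *Krt7* and 0.461 for *Epcam*. *Tff3* ran from -0.743 with *Krt23* to 0.16 with *Epcam*. These values describe 12 libraries that fall into 4 groups, so differences between groups set much of each r, and no test was made. Among 9823 or 9824 other genes with a mean of at least 100 normalized counts, the profile most like *Spp1* was that of *Bicc1* (r = 0.986), which was also the closest to *Epcam* (0.978). The closest to *Sox9* were *Scara3* (0.909) and *Cd24a* (0.886), to *Krt7* *Adamtsl2* (0.962) and *Ezr* (0.953), and to *Krt19* *Ezr* (0.936) and *Bcam* (0.913). *Krt23* was most like *Lsm3* (0.961) and *Pecam1* (0.935), and *Cldn4* most like *Rhoc* (0.935) and *Leprot* (0.93). *Scara3* also came second for *Epcam* (0.97), and *Faap20* second for *Spp1* (0.971). For *Tff3* the closest were *Ccdc125* (0.905) and *Cobl* (0.904), neither of which was among the closest 2 of the other 7 genes compared. *Cftr*, which did not pass the filter, was not compared.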

How the data were processed

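The authors deposited 2 tables of raw counts per gene, 1 for each diet, made from stranded libraries of total liver RNA (RNA integrity numbers above 6). The counts were deposited as text, with commas as digit separators, and were read as whole numbers. They were analysed with limma, and no count model was fitted. The submitters' notes name the builds GRCm38.p6 and mm10. For the chow libraries, the methods name CLC Genomics Workbench with reverse-strand alignment. No column of sample values was left unused (0 in each table).

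Counts were scaled by TMM factors (trims 0.3 and 0.05) to CPM. limma 3.58.1 in R 4.3.3, with a variance trend, was fitted to log2 CPM with a pseudocount of 0.5, so fold changes of low genes are understated. Genes with at least 10 counts, scaled to the median library, in 3 libraries and 15 in all were tested. Genotype was fitted within each diet (6 libraries), and diet and interaction on all 12. Calls needed 10 or more counts in the sum of each group, a change of 1.5 times or more and a Benjamini-Hochberg adjusted p no higher than 0.05. The steps were tested on simulated data. The 9 genes, the lists and the rule for names were chosen with earlier results of these data known. Of each other list, up to 4 called genes a comparison with the largest change and a mean of at least 50 normalized counts could be named, though not every such gene is. For likeness the 2 genes with the highest r are named. Other genes, among them those that rest on the filter or went against their list, were named after their values were seen. The values of 1 gene of the other biliary list are not reported here, although the list's counts include it. No label ties a replicate number to a batch. Nothing says whether libraries come from single mice, so p-values measure only the spread between libraries. Alternatives were RLE and upper-quartile factors, a pseudocount of 2, other filters, voom weights, a replicate block, no fold limit, a fit on all 12 libraries and leaving out each library.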

Additional observations from a re-analysis of the deposited data

How the results depend on the processing

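RLE factors, a pseudocount of 2, no filter and at least 10 counts in every library kept every count of calls within 1.5 times. Of the 9 genes, calls by genotype on chow numbered 1, but 0 with voom weights, 2 in the fit on all 12 libraries and 0 to 1 when a library was left out. On HFCF they numbered 3, but 5 in the fit on all 12 libraries, 7 with the replicate block and 0 to 3 when a library was left out. The replicate block moved no other count by over 1.5 times. Replicate numbers pair nothing in the labels, and deviations of same-numbered libraries correlated at -0.0299, 0.107 and -0.00293 on chow and at 0.0884, 0.19 and 0.0861 on HFCF, so the block is given only here. Leaving out a library gave 5 to 8 calls by diet in livers labelled HuRHep-/- and 0 to 1 for the interaction. Of the other biliary genes, the fit on all 12 libraries called 1 on chow, and leaving out a library gave 0 to 10 on HFCF, 1 to 2 by diet in WT livers and 10 to 19 by diet in livers labelled HuRHep-/-. Upper-quartile factors and no fold limit each called 2 by diet in WT livers. The *Krt7* difference on chow, -0.24, ran from -0.637 to 0.313 (without chow HuRHep-/- replicate 3), and that of *Krt23* by diet in WT livers, 0.45, from -0.044 (without chow WT replicate 3) to 0.771. *Krt7*, *Krt19*, *Epcam* and *Cldn4* by diet in WT livers and *Sox9* by genotype on chow, none called, also changed sign with 1 library left out. That of *Tff3* on chow ran from 2.826 to 4.083. The cause of these changes was not tested, beyond the fewer libraries. Signs held in 101 of 105 alternative values by genotype on chow, 144 of 159 by diet in WT livers and all 116, 159 and 159 by genotype on HFCF, by diet in livers labelled HuRHep-/- and for the interaction. Where groups did not overlap, as for most genes by genotype on HFCF and by diet in livers labelled HuRHep-/-, a kept sign was nearly settled beforehand. Depth limited *Cldn4* and *Cftr*, which had at most 12 counts in any library other than the HFCF livers labelled HuRHep-/-.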

Other observations

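Other cell types moved with the diet beside the duct genes. Of 10 lymphocyte markers, 4 rose with HFCF in livers labelled HuRHep-/-, where 13.7% of all genes did. Of these, *Cd3e* and *Cd8a* would not have passed the filter on the chow libraries alone, so their rise was built into their being tested, and without the 4 such genes of the list 2 of 6 rose. In WT livers none was called by limma or with voom weights, and 2 had an unadjusted p under 0.05 (20%, against 37.9% of all genes). Of 12 hepatocyte markers, 2 fell with the diet in WT livers, *Cps1* by 0.83 ± 0.17 and *Hal* by 0.85 ± 0.15 on the log2 scale (limma, adjusted p = 0.00616 and 0.00328), where 3.32% of all genes were called lower. In livers labelled HuRHep-/-, 3 fell, against 5.5% of all genes, these 2 and *Cyp2e1*, a cytochrome P450 of pericentral hepatocytes, which changed by -0.63 ± 0.16 (limma, adjusted p = 0.0104). *Cyp2e1* was also the 1 of 12 called by genotype on HFCF, at -0.77 ± 0.17 (limma, adjusted p = 0.0433), where 1.55% of all genes were called lower. Whether any of these differences differ between genotypes was tested by the interaction, which called no gene in limma.

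Among Kupffer cell markers, *C6*, a complement gene that hepatocytes also make, was lower on HFCF in livers labelled HuRHep-/- by genotype, at -1.66 ± 0.22 (limma, adjusted p = 0.0173). It was the 1 of 8 called, where 1.55% of all genes were called lower. The list did not move with it, since 6 of the 8 estimates lay above 0 with a median of 0.32, up to 1.63 ± 0.41 for *Marco*, which was not called and is named after its value was seen. Of the 4 intestinal genes tested, *Slc5a1*, which encodes the sodium-glucose transporter SGLT1, a gene that bile duct cells also express, was higher by genotype on HFCF at 1.82 ± 0.24 (limma, adjusted p = 0.0173). It was the 1 of 4 called, where 2.15% of all genes were called higher. *Lgals4* at -0.98 ± 0.24 and *Fabp2* at -0.10 ± 0.08 lay below 0, and *Vil1*, which like them is named after its value was seen and which the WT libraries alone would not have carried past the filter, was at 1.82 ± 0.58. The *Tff3* difference on chow came with no call, by limma or with voom weights, among the 3 mucin genes, the 9 other claudins or the 3 other keratins tested there. Of these, 1, 2 and 0 had an unadjusted p under 0.05, where 23.4% of all genes did. The other trefoil genes *Tff1* and *Tff2* had at most 7 and 4 counts in any chow library and were not tested.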
